A study of Tupaia belangeri with 2 samples.

Results

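The axon guidance ligands and receptors of the fetal tree shrew brain were read as the named genes of the semaphorin, plexin, neuropilin, ephrin, Eph receptor, SLIT, ROBO, netrin and UNC5 families. They were chosen by the spelling of the gene name in the annotation, and names with fewer than 20 unique molecular identifiers (UMIs, the count of captured RNA molecules) over both libraries were dropped. Of 18543 gene names, which cover 23975 gene models, 61 matched and 53 were kept. The kept names comprised 17 semaphorins, 9 plexins and neuropilins, 6 ephrins, 8 Eph receptors, 7 SLIT and ROBO genes, 5 netrin and UNC5 genes, and UNC50, a Golgi protein that matched by spelling only and is no netrin receptor. The kept name with the fewest UMIs was ROBO4 with 23, and the dropped name with the most was EPHA2 with 15. The other dropped names were UNC5CL with 10 UMIs, NTN3 with 11, NTN5 with 6, SEM6B and SEMA3G with 4 each, EPHA6 with 2 and EPHA1 with 0.

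Growing axons and migrating neurons read these families as attractive or repulsive cues. Semaphorins are ligands of plexins, and the secreted class 3 semaphorins bind them mostly through the coreceptors NRP1 and NRP2. SLIT proteins bind ROBO receptors, netrins bind UNC5 receptors among others, and ephrins bind Eph receptors in contacts between cells that can signal in both directions. Several members, among them ROBO4, UNC5B, PLXND1, NRP1, EFNB2 and EPHB4, are also known from the growth and patterning of blood vessels.

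Whole brains of 2 tree shrew (Tupaia belangeri) embryos of 4 to 5 postconceptional weeks were dissociated after the dura mater and vessels had been stripped off, and each embryo gave 1 droplet library that tags the 3′ ends of transcripts (10x Chromium, v3). The embryos belong to the same group and nothing was applied to either, so the comparisons below are between cell classes within the same 2 animals. The libraries held 41868023 and 38077767 UMIs over 9241 and 9685 cell barcodes, 18 of which occur in both libraries. The members took 1545 and 1365 of every 1000000 UMIs. Of their 64686 and 51969 UMIs, 43647 and 26920 came from a single gene model named EPHA4, which is set apart below. These shares therefore mostly reflect that model. Haemoglobin took 28.7% and 13.6% of the UMIs of embryos 1 and 2.

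The 17735 cells with at least 200 genes were clustered without the members, and clusters were called after fixed marker lists. This gave 12 classes, and 1876 cells (10.6%) stayed unnamed. The 5 neuron-like classes held 1112 cortical excitatory, 2300 midbrain or thalamus excitatory, 226 granule, 3069 inhibitory and 2837 nascent inhibitory cells over both embryos. The main cluster of the nascent inhibitory class carried DLX2, DLX5 and MEIS2 among its markers, and the inhibitory class GAD1, GAD2, GATA3, OTX2 and TFAP2B. The 2 progenitor-like classes were radial glia (2111 cells) and dividing cells of any lineage (2458 cells), and these 7 classes are called neuroectodermal below. The remaining classes were endothelial-like (87 cells), meningeal fibroblast-like (115), choroid plexus-like (162), microglia-like (158) and erythroid-like (1224). The small classes limit what can be seen: 3 UMIs, taken as the limit that a count of 0 allows, correspond to 13.2 and 10.5 CPM in the endothelial-like class of embryos 1 and 2 but to 0.403 and 0.490 CPM in the dividing class. CPM here means UMIs per 1000000 UMIs of a class in an embryo. In such sums, fewer cells that use a gene and less RNA per cell cannot be told apart, and since a 3′ count depends on each annotated gene end, levels are compared between classes and never between genes. The granule class was mixed by its markers. Its own list summed to 1161 and 1128 CPM in embryos 1 and 2. Midbrain or thalamus markers summed to 929 and 591 CPM there, inhibitory ones to 776 and 1122 CPM and cortical ones to 481 and 557 CPM. The part of other cells in the granule values was not tested.

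Of the 53 members, 50 had enough UMIs to be tested, and PLXNB3, SEMA7A and UNC5A did not. Counts summed by embryo and class were compared with edgeR's quasi-likelihood test with the embryo as a block, and every adjusted p below is its Benjamini-Hochberg value over all 10621 genes tested, called when under 0.05. A log2 fold change is a difference between mean log2 levels of classes after TMM scaling, so it can depart from the ratio of the mean CPM printed beside it. The embryo block takes up the difference between the 2 embryos that all classes share. The fold is judged against what remains, the departures of single classes from that shared difference. This is not the full spread between animals, and the 2 embryos share their classes' definition. Each standard error (SE) below was derived as the absolute log2 fold change divided by the square root of the test's F statistic.

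EPHA4, ROBO1 and PLXND1 each cover several gene models, and EPHA4 had to be taken apart before its level could be read. The name EPHA4 stands for 23 models with 75495 UMIs in all. A single model, which does not lie beside PAX3, held 93.5% of them. It was detected in 82.1% of all barcodes. The summed name was higher in embryo 1 in all 12 classes, for example with 1663 against 947 CPM in radial glia-like cells. In the human genome EPHA4 lies beside PAX3. The model of the name that lies beside PAX3 here held 3790 UMIs, 5.02% of the name, and it is called the own locus below. Its level was 64.7 and 58.3 CPM in radial glia-like cells of embryos 1 and 2. A further model of the name, next to EPHA6, held 289 UMIs, and another held 791. ROBO1 covers 18 models, of which a neighbouring pair held 35.9% and 52.9% of its 1939 UMIs, and PLXND1 covers 7 models, of which 3 on the same contig held nearly all 87 UMIs. Counts of members called use the name sums, as the rule reads them, and values for EPHA4 are those of its own locus unless the name is said to be summed.

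Members differed widely in how many classes they marked. The highest class was the same in both embryos for 28 of 53 members. For 20 of 53 the highest class did not overlap any other, in that its lower embryo lay above the higher embryo of every other class. By mean CPM, 10 members were highest in the endothelial-like class, 9 in cortical excitatory cells, 8 in the fibroblast-like class, 7 in midbrain or thalamus excitatory cells, 6 in granule cells and 5 in inhibitory cells. The other classes led for 1 or 2 members each, except the erythroid-like class, which led for none. Several placements in small classes rest on few UMIs. Examples are SLIT3 (1 and 1) and EFNA1 (1 and 3) in the endothelial-like class and SEMA3F (3 and 0) in the fibroblast-like class. The fibroblast-like count includes UNC50. The same ranking was not made over all genes. In the erythroid-like class, where neural guidance genes are not expected, the highest member apart from the summed name EPHA4 was ROBO2 with 3.95 and 6.54 CPM. Haemoglobin took on average 79.0% and 74.3% of the UMIs of a cell in that class in embryos 1 and 2.

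**Figure D1:**
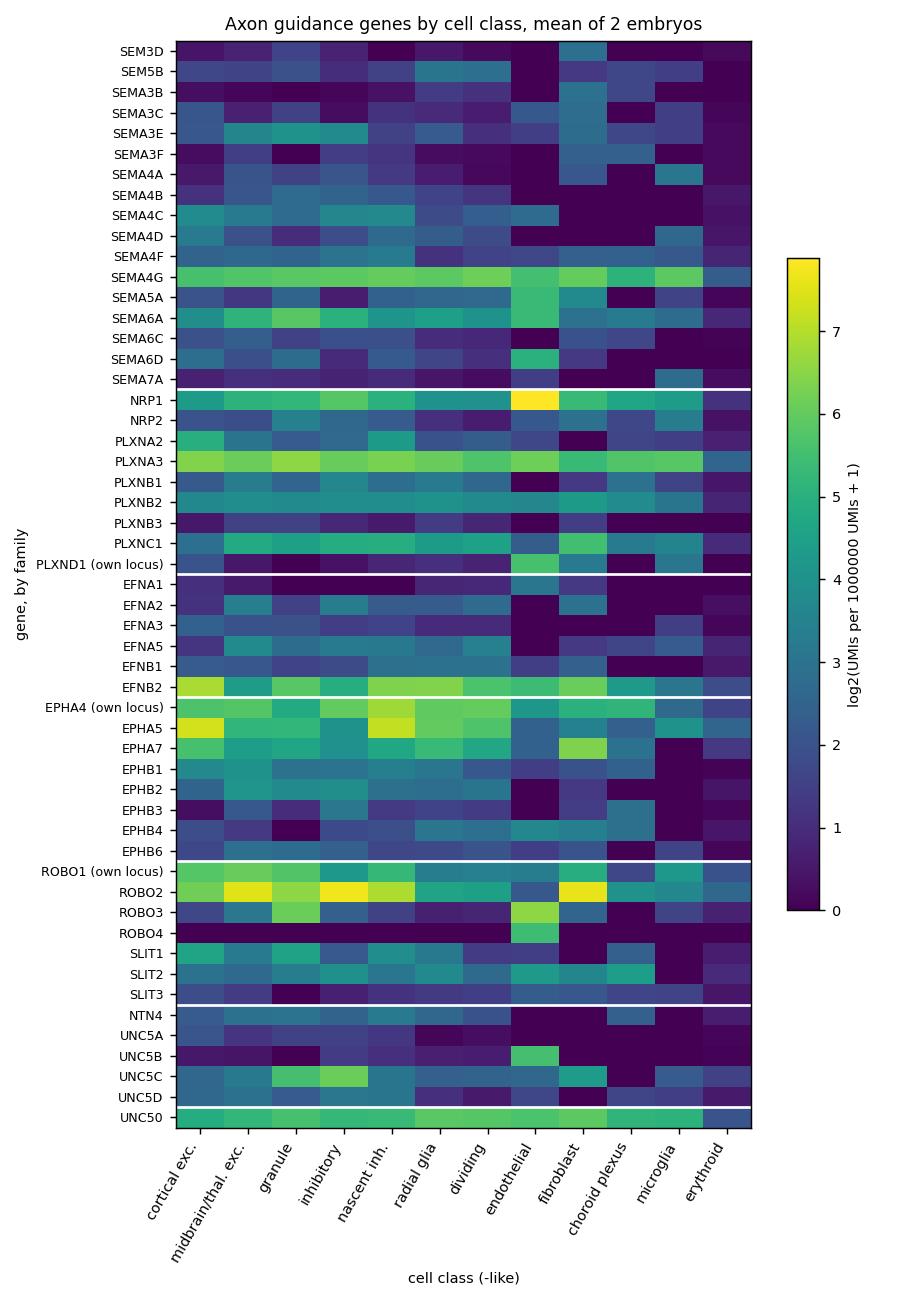
Colour gives the mean level of each kept gene over 2 embryos as log2(CPM + 1), with genes as rows grouped by family (white lines) and the 12 cell classes as columns; EPHA4, PLXND1 and ROBO1 are read from their own locus. SEMA4G, PLXNA3 and UNC50 form bands across all 7 neuroectodermal classes, although each was called different between neuron-like and progenitor-like classes. ROBO4, UNC5B and NRP1 stand out in the endothelial-like column and EPHA5 and PLXNA2 in the cortical excitatory and nascent inhibitory columns. EFNB2 is highest in the cortical excitatory column, followed by radial glia.

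Some members were close to even across the 7 neuroectodermal classes. SEMA4G, a class 4 transmembrane semaphorin and the semaphorin with the most UMIs (3592), ran from 50.5 and 43.2 CPM in cortical excitatory cells to 74.2 and 64.5 CPM in dividing cells of embryos 1 and 2. PLXNA3, an A-type plexin and the plexin with the most UMIs (4052), ran from 50.4 and 53.4 CPM in dividing cells to 74.7 and 112 CPM in granule cells. PLXNB2, a B-type plexin, stayed between 10.1 and 18.6 CPM in every neuroectodermal class and embryo. These levels overlapped between most of the 7 classes. Small differences were still called in the comparison of neuron-like with progenitor-like classes below. SEMA4G was lower in neurons by 0.43 on the log2 scale, UNC50 lower by 0.83 and PLXNA3 higher by 0.17. Outside the 7 classes PLXNA3 was lower in fibroblast-like cells, at 43.9 and 34.3 CPM. SEMA4G was at 48.5 and 42.1 CPM in endothelial-like and at 3.95 and 4.16 CPM in erythroid-like cells. SLIT2 was more uneven, with its highest levels at 8.6 and 31.0 CPM in choroid plexus-like and 22.1 and 14.0 CPM in endothelial-like cells, on few UMIs. SEMA6A was highest in granule cells (57.5 and 53.9 CPM).

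Neuron-like classes were compared first with the progenitor-like ones, which are radial glia and dividing cells of any lineage. Unnamed cells were on neither side. They include a cluster of 433 cells with PAX3 and FZD10 among the genes that set it apart, and another of 369 cells with DBX1. The 2 sides were not matched for brain region. In the neuron-like classes 4 of 7 tested SLIT and ROBO genes, 2 of 4 netrin and UNC5 genes and 4 of 8 plexins and neuropilins were called higher. No member of these families was called lower. Of 6 ephrins 1 was higher and 4 lower, and of 8 Eph receptors 1 was higher and 3 lower. The lower calls of EPHA5 and EFNA5 were lost when library totals replaced the TMM factors (adjusted p = 0.507 and 0.178). In all, 20 members were higher and 12 lower in the mean of the 5 neuron-like classes than in that of the 2 progenitor-like classes, where 28.3% of all genes were higher and 34% lower. The 32 calls are 64% of the 50 tested, and 62.3% of all genes tested were called in this comparison, so the share of calls is close to the background. The median log2 fold change was 0.22 over the tested members and -0.07 over all genes, or 0.15 over all genes when library totals replaced the TMM factors, so that folds of about 0.2 rest on the scaling.

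Among receptors, ROBO2, which receives SLIT signals, stood at 129 and 141 CPM in the neuron-like classes of embryos 1 and 2 and at 20.0 and 24.6 CPM in the progenitor-like ones. Each of the 5 neuron-like classes lay above both progenitor-like classes in both embryos, and the log2 fold change was 2.25 ± 0.08 (SE; adjusted p = 3.38e-46). ROBO1, the other main SLIT receptor of commissural and cortical axons, was at 47.4 and 51.2 CPM against 12.5 and 11.9 CPM. Its fold was 1.68 ± 0.12 (adjusted p = 6.14e-24), and 1.91 ± 0.13 when read from its own locus. ROBO3 was at 22.6 and 11.4 CPM against 0.733 and 0.616 CPM (fold 2.91 ± 0.35, adjusted p = 1.32e-12). Its neuronal mean was carried by the granule class, which was mixed by its markers, with 93.9 and 43.9 CPM there and at most 9.0 CPM in the other 4. All 3 receptors were higher in neurons, and no SLIT or ROBO gene was called lower. SLIT3 had a fold of -1.37 ± 0.68 (adjusted p = 0.0736).

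The netrin receptors UNC5C and UNC5D also rose. UNC5C was at 24.5 and 29.8 CPM in the neuron-like classes against 4.23 and 4.98 CPM (1.51 ± 0.19, adjusted p = 1.79e-11), but the mean hides a wide range, since it was at 61.5 and 76.2 CPM in inhibitory cells and at 5.62 and 4.5 CPM in cortical excitatory cells. UNC5D was at 5.42 and 6.94 CPM against 0.931 and 0.682 CPM (2.67 ± 0.42, adjusted p = 2.25e-08), and it was spread evenly over 4 of the 5 neuron-like classes at 5.24 to 9.37 CPM. NTN4, the netrin with the most UMIs (303), was at 4.85 and 7.46 CPM against 3.59 and 4.46 CPM and was not called (0.33 ± 0.24, adjusted p = 0.219).

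The semaphorin coreceptors NRP1 and NRP2 were both higher in neurons. NRP1 was at 32.8 and 37.3 CPM against 15.5 and 14.7 CPM (0.89 ± 0.12, adjusted p = 4.53e-10), and NRP2 at 4.55 and 5.35 CPM against 0.867 and 0.808 CPM (2.12 ± 0.37, adjusted p = 3.29e-07). PLXNA2 was called higher as well, and PLXNA3 by only 0.17 ± 0.07, a size that the scaling can set. Of the 16 semaphorins tested, 8 were higher and 4 lower. SEMA4A had the largest rise among them, on 27 and 32 UMIs in neurons (2.11 ± 0.69, adjusted p = 0.00546). SEMA3E, SEMA4C and SEMA4F rose by 1.472, 1.335 and 1.664. SEMA4C, for example, was at 12.03 and 8.18 CPM in neurons and at 3.53 and 3.09 CPM in progenitors.

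The members lower in neurons included ligands and receptors of the ephrin system and another group of semaphorins. EPHB4, an ephrin-B receptor, was at 2.32 and 1.40 CPM in neurons and at 6.93 and 6.88 CPM in progenitors (-2.89 ± 0.37, adjusted p = 3.82e-11). SEM5B, the annotation's spelling for the class 5 semaphorin SEMA5B, was at 2.50 and 1.53 CPM against 7.76 and 6.05 CPM (-2.05 ± 0.27, adjusted p = 5.12e-11). SEMA5A, its class 5 relative, was at 3.18 and 2.53 CPM against 4.46 and 6.05 CPM (-1.53 ± 0.28, adjusted p = 1.26e-06). Both class 5 semaphorins were thus lower in the mean of the neuron-like classes. SEMA5A differed among these classes, with 0.843 and 0.204 CPM in inhibitory but 4.06 and 4.78 CPM in nascent inhibitory cells. SEMA3B fell by 3.23 ± 0.72 with 1 and 4 UMIs in neurons and 16 and 16 in progenitors (adjusted p = 5.12e-05). EFNA1 fell by 2.61 ± 0.84 on 1 and 9 against 8 and 11 UMIs (adjusted p = 0.00485 with edgeR, 0.0868 with DESeq2).

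EFNB1, an ephrin-B ligand, was at 3.77 and 3.54 CPM in neurons against 7.16 and 6.48 CPM and fell by 1.24 ± 0.24 (adjusted p = 4.86e-06). Other members of the ephrin system varied widely among the neuron classes behind the mean. EFNB2 fell by 0.60 ± 0.09 (adjusted p = 8.9e-09), yet its highest class was the neuron-like cortical excitatory one, with 117 CPM in each embryo against 82.9 and 83.9 CPM in radial glia-like cells. EPHA5 fell by 0.31 ± 0.08 (adjusted p = 0.000355), while its mean CPM was the other way round, 82.0 and 74.3 in neurons against 62.3 and 50.8 in progenitors, and with library totals the call was lost (adjusted p = 0.507). EPHA4 at its own locus was at 58.8 and 61.4 CPM against 62.9 and 62.5 CPM (-0.42 ± 0.08, adjusted p = 9.84e-07), whereas the summed name was not called. For EFNB2, EPHA5 and EPHA4 the neuron-like classes spanned a wider range than the distance between the neuronal and the progenitor mean.

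**Figure D2:**
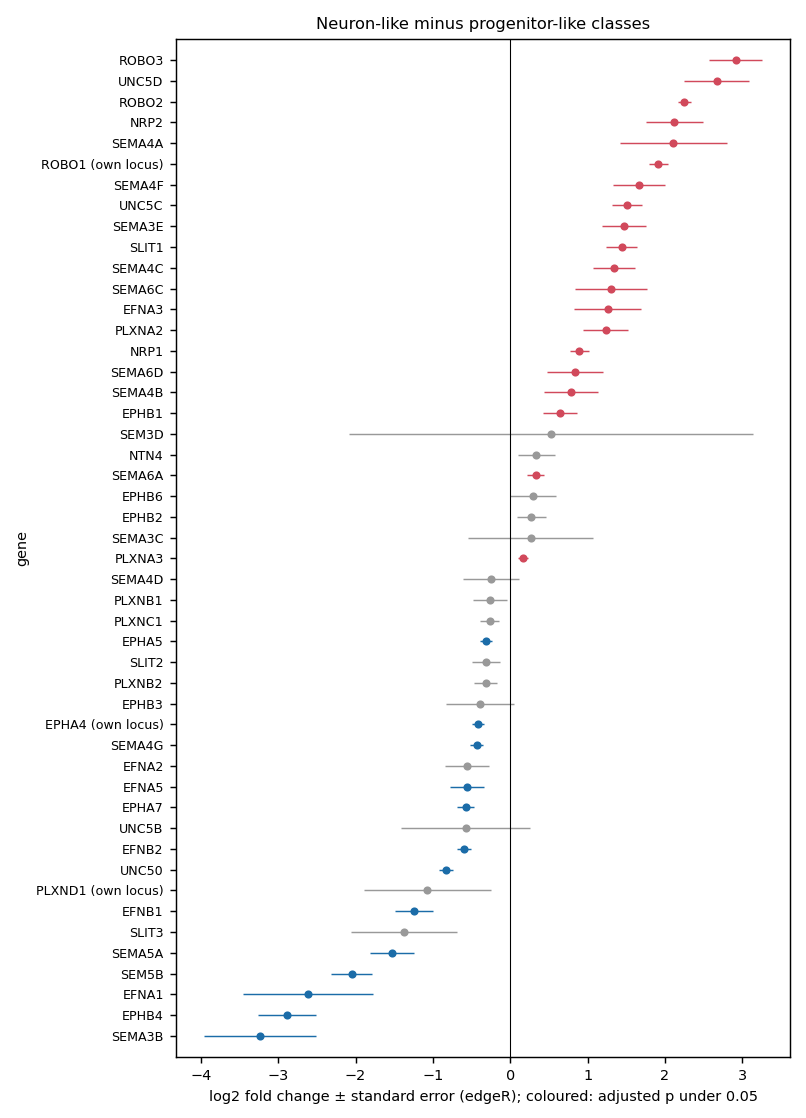
Points are log2 fold changes of tested members between neuron-like and progenitor-like classes (x axis). Bars are standard errors derived from edgeR's fold change and F statistic. Members with an adjusted p under 0.05 are red where higher and blue where lower. EPHA4, PLXND1 and ROBO1 are read from their own locus. ROBO4 and SEMA3F, whose standard errors are too large to draw, are left out. The ROBO and UNC5C/UNC5D receptors and NRP2 sit among the highest, and SEMA3B, EPHB4 and SEM5B among the lowest.

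The cortical and the midbrain or thalamus excitatory classes were compared next with the inhibitory and nascent inhibitory ones. The granule class was on neither side. In the mean over classes, SLIT1 and ROBO1 were higher in excitatory cells, and UNC5C, PLXNC1, NRP1 and ROBO2 were higher in inhibitory cells. Several of these means were carried by a single class, as the values of cortical against midbrain or thalamus cells and of nascent inhibitory against inhibitory cells given further on show. Of 50 tested members 17 were called (34%), 10 higher and 7 lower in excitatory cells, beside 21.8% of all genes (12.7% higher and 9.14% lower). The median fold of the members was 0.04 against -0.00 for all genes. ROBO1 was at 65.2 and 61.9 CPM in excitatory cells and at 26.5 and 36.2 CPM in inhibitory cells (1.16 ± 0.12, adjusted p = 2.1e-14). SLIT1, a ROBO ligand, was at 18.3 and 13.3 CPM against 10.2 and 7.14 CPM (1.10 ± 0.21, adjusted p = 1.17e-05). ROBO2 went the other way, with 121 and 131 CPM against 154 and 175 CPM (-0.36 ± 0.07, adjusted p = 5.46e-06). By class ROBO2 did not follow the transmitter type that the classes are named for. Midbrain or thalamus excitatory cells (174 and 189 CPM) lay above nascent inhibitory cells (116 and 123 CPM) in both embryos, and the cortical cells were lowest. The midbrain or thalamus class also carried inhibitory neuron markers, at a summed 1047 and 959 CPM. They summed to 1226 and 1351 CPM in nascent inhibitory and 71.5 and 84.2 CPM in cortical cells. The part of inhibitory cells in the midbrain or thalamus values was not tested.

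UNC5C had the largest difference toward inhibitory cells after EPHB3, with 8.70 and 4.53 CPM in excitatory and 35.2 and 41.1 CPM in inhibitory cells (-1.73 ± 0.23, adjusted p = 9.72e-10). In granule cells, which were on neither side, the mean of UNC5C was 46.2 CPM. PLXNC1, the receptor of SEMA7A, was at 16.0 and 17.4 CPM against 28.3 and 29.1 CPM (-1.004 ± 0.16, adjusted p = 2.53e-07). SLIT2, another ROBO ligand, was at 3.86 and 8.22 CPM against 9.38 and 12.6 CPM (-0.69 ± 0.23, adjusted p = 0.021). The SLIT1 call was lost with cells of at least 1000 genes (adjusted p = 0.280), and by class SLIT1 was higher in nascent inhibitory (16.6 and 10.8 CPM) than in midbrain or thalamus excitatory cells (9.62 and 7.31 CPM). Among Eph receptors, EPHB1 was at 12.2 and 15.1 CPM against 9.69 and 6.81 CPM (0.90 ± 0.20, adjusted p = 0.000251), and EPHB3 fell by 1.76 ± 0.62 on 12 and 18 against 21 and 48 UMIs (adjusted p = 0.0275). EFNA1 was called on 1 and 9 UMIs against none, and it was at least 3.66-fold higher in embryo 2, while both sides lay under the limit in embryo 1. SEMA6D was called on 26 and 26 UMIs against 12 and 19 (1.28 ± 0.41, adjusted p = 0.0159), and EFNA5 on 29 and 89 against 30 and 96 (-0.90 ± 0.31, adjusted p = 0.0216). The SEMA6D call was lost with cells of at least 1000 genes and without the highest doublet scores (adjusted p from 0.142 to 0.375).

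EPHA4 was the member whose sign depended on how the name was read. At its own locus it was lower in excitatory cells, with 50.6 and 53.9 CPM against 80.1 and 88.6 CPM (-0.52 ± 0.08, adjusted p = 1.84e-07), and the summed name was higher (0.22 ± 0.07, adjusted p = 0.0129). With DESeq2 11 members were called in this comparison and with cells of at least 1000 genes 9, and the calls of EPHB3, EFNA5 and SLIT2 were among those lost. The share of all genes called in these settings is not given, so whether the drop is particular to the members cannot be told.

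Classes were then compared inside the neuron types. Between the 2 excitatory classes, 24 of 50 members were called (48%, with 21% of all genes called, 10.7% higher and 10.4% lower), 11 higher and 13 lower in cortical cells. The median fold was 0.02 over members and -0.01 over all genes. Cortical excitatory cells carried more EPHA5, EPHA7, EFNB2, PLXNA2 and SLIT1. Midbrain or thalamus excitatory cells carried more EFNA5, EFNA2, EPHB2, PLXNC1 and ROBO2.

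EPHA5, an ephrin-A receptor, was at 163 and 161 CPM in cortical cells of embryos 1 and 2 and at 39.1 and 32.2 CPM in midbrain or thalamus cells. The embryos agreed closely and the classes did not overlap (2.36 ± 0.11, adjusted p = 1.76e-36). EPHA7, a related receptor, was at 51.7 and 43.2 CPM against 25.4 and 14.2 CPM (1.478 ± 0.19, adjusted p = 1.94e-10). EPHA4 at its own locus did not follow them, at 50.5 and 50.4 CPM against 50.6 and 57.3 CPM (0.07 ± 0.13, adjusted p = 0.803). The summed name was called higher here (0.52 ± 0.10, adjusted p = 1.21e-05).

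Of the 6 ephrin ligands tested, EFNB2 was called higher in cortical cells and EFNA5 and EFNA2 lower. The other kept ephrin-B ligand, EFNB1, was at 4.49 and 3.15 CPM against 4.03 and 2.77 CPM and was not called. EFNB2 was at 117 CPM in cortical cells of each embryo and at 25.1 and 14.0 CPM in midbrain or thalamus cells (2.82 ± 0.17, adjusted p = 2.29e-28). The ephrin-A ligands EFNA5 and EFNA2 were the reverse. EFNA5 had 2 and 4 UMIs in cortical cells (0.749 and 1.80 CPM) and 27 and 85 UMIs in midbrain or thalamus cells (8.38 and 16.8 CPM), a fold of -3.10 ± 0.46 (adjusted p = 3.31e-08). EFNA2 had 3 UMIs in cortical cells of each embryo (1.12 and 1.35 CPM) and 28 and 50 in the other class (8.69 and 9.88 CPM), a fold of -2.69 ± 0.51 (adjusted p = 1.33e-05). The ephrin-A ligand EFNA3 was at 4.87 and 4.05 CPM in cortical cells against 3.103 and 2.77 CPM and was not called (0.75 ± 0.52, adjusted p = 0.361), so the ephrin-A ligands did not move as a group. Of the EPHB receptors, EPHB2, EPHB3 and EPHB6 were called lower in cortical cells. EPHB1 (10.1 and 14.0 against 14.3 and 16.2 CPM) and EPHB4 (2.62 and 2.70 against 1.55 and 1.38 CPM) were not called. EPHB2 was at 4.12 and 5.40 CPM in cortical cells against 14.9 and 17.8 CPM (-1.65 ± 0.32, adjusted p = 1.82e-05), and EPHB3 had 0 and 1 UMIs against 12 and 17 (-3.61 ± 0.98, adjusted p = 0.00303).

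Plexins divided too. PLXNA2, an A-type plexin, was at 32.2 and 27.0 CPM in cortical cells against 8.07 and 6.33 CPM (2.23 ± 0.25, adjusted p = 7.8e-13). PLXNC1 was at 5.62 and 7.21 CPM against 26.4 and 27.7 CPM (-1.91 ± 0.26, adjusted p = 2.45e-09). PLXND1 was called on 12 and 5 against 2 and 1 UMIs (3.25 ± 0.84, adjusted p = 0.00164), and the call was lost when its models were not summed (adjusted p = 0.0523). SLIT1 was at 27.0 and 19.4 CPM against 9.62 and 7.31 CPM (1.64 ± 0.25, adjusted p = 5.15e-08), and ROBO2 at 67.8 and 73.9 CPM against 174 and 189 CPM (-1.18 ± 0.10, adjusted p = 6.16e-19). The SLIT ligand and this ROBO receptor lay on opposite sides, in both embryos.

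Of the semaphorins, SEMA4D and SEMA6D were higher in cortical cells and SEMA3E and SEMA6A lower. The SEMA6D call was lost with library totals (adjusted p = 0.0753). SEMA6A, a transmembrane ligand of A-type plexins, was at 15.4 and 12.6 CPM against 34.1 and 33.6 CPM (-1.10 ± 0.21, adjusted p = 1.25e-05). SEMA3C and SEMA4A were called on at most 16 UMIs on any side. SEMA3C had 8 and 8 against 3 and 2 UMIs (2.49 ± 0.78, adjusted p = 0.0123) and SEMA4A 0 and 2 against 10 and 16 (-2.65 ± 0.95, adjusted p = 0.0329). The call of SEMA4A was lost with DESeq2, without the block, at a resolution of 1.0 and without the highest doublet scores. That of SEMA3C was lost at a resolution of 1.0 (adjusted p = 0.0812).

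**Figure D3:**
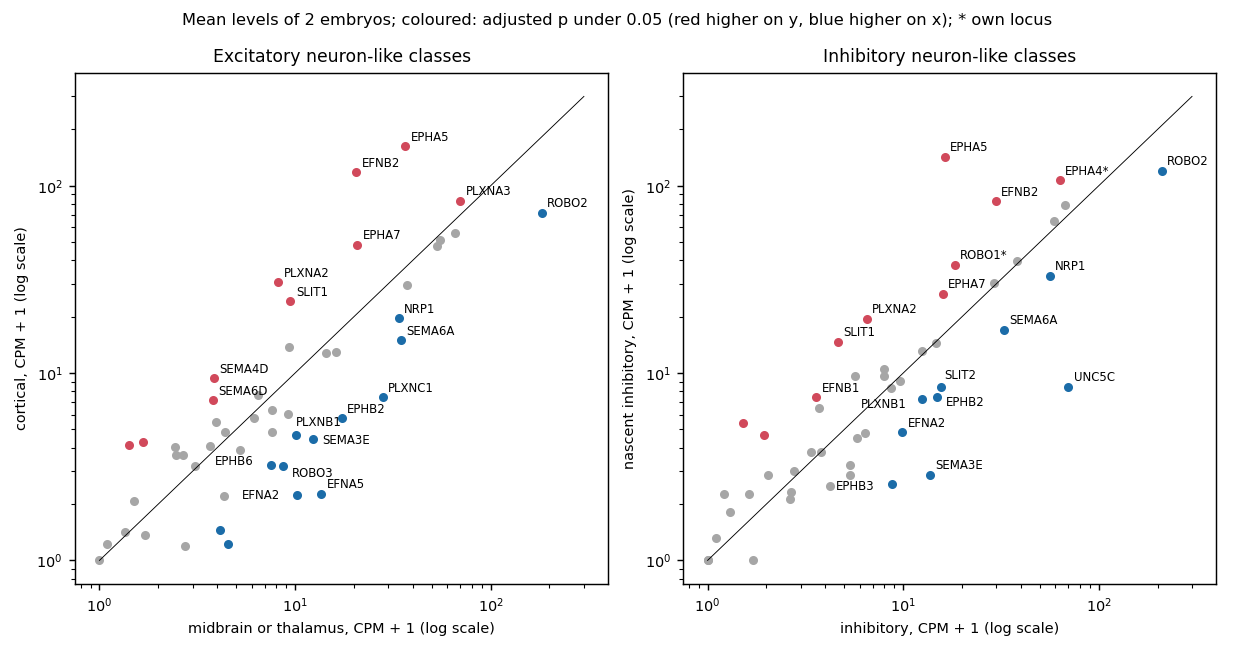
Each point is a tested member, with its mean CPM + 1 over 2 embryos in midbrain or thalamus excitatory (left, x axis) against cortical excitatory cells (y axis), and in inhibitory (right, x axis) against nascent inhibitory cells (y axis); all axes are logarithmic and the line marks equal levels. Red points were called higher in the class on the y axis and blue points in that on the x axis, with EPHA5, EFNB2, PLXNA2 and SLIT1 above the line in both panels and ROBO2, NRP1 and SEMA6A below it in both.

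Inhibitory neurons were divided by many of the same members. Of the 50 tested, 19 were called (38%, with 17.7% of all genes called, 9.52% higher and 8.22% lower), 9 higher and 10 lower in nascent inhibitory cells, and the median fold was 0.02 for the members and for all genes. EPHA5 was at 154 and 130 CPM in nascent inhibitory cells of embryos 1 and 2 and at 18.1 and 12.4 CPM in inhibitory cells (3.21 ± 0.14, adjusted p = 3.16e-40). EPHA4 at its own locus was at 99.2 and 114 CPM, its highest level in any class, against 61.1 and 63.6 CPM (0.73 ± 0.10, adjusted p = 6.19e-09). EFNB2 was at 76.0 and 87.0 CPM against 28.2 and 29.3 CPM (1.44 ± 0.16, adjusted p = 1.64e-12). These ephrin-system genes did not overlap between the classes.

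PLXNA2 and SLIT1 were again on the same side as EPHA5. PLXNA2 was at 19.2 and 17.9 CPM against 7.58 and 3.46 CPM (1.85 ± 0.29, adjusted p = 1.45e-07), and SLIT1 at 16.6 and 10.8 CPM against 3.79 and 3.46 CPM (1.79 ± 0.32, adjusted p = 5.4e-06). SEMA5A had 11 and 19 UMIs in nascent cells and 2 and 1 in inhibitory cells, and its fold of 3.21 ± 0.70 (adjusted p = 0.000185) was 2.12 in embryo 1 alone and 4.17 in embryo 2 alone. SEMA6D had 9 and 16 against 3 and 3 UMIs (2.03 ± 0.66, adjusted p = 0.0185).

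In the other direction, UNC5C was at 8.85 and 6.04 CPM in nascent cells and at 61.5 and 76.2 CPM in inhibitory cells (-3.32 ± 0.22, adjusted p = 2.09e-25). The next highest class for this netrin receptor was the granule class, with 34.5 and 57.9 CPM. SEMA3E, a secreted ligand of PLXND1, was at 2.21 and 1.51 CPM against 7.16 and 18.1 CPM (-2.96 ± 0.40, adjusted p = 2.05e-09), and the fold was -1.73 in embryo 1 alone and -3.59 in embryo 2 alone. Its direction was the same in both embryos, but its size in the inhibitory class was not. EPHB3 had 5 and 5 against 16 and 43 UMIs (-2.42 ± 0.50, adjusted p = 7.21e-05), and EPHB2 was at 7.37 and 5.53 CPM against 16.9 and 10.8 CPM (-1.09 ± 0.29, adjusted p = 0.00262).

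EFNA2 was at 4.42 and 3.27 CPM in nascent cells against 9.69 and 8.15 CPM (-1.24 ± 0.36, adjusted p = 0.00749 with edgeR, 0.0526 with DESeq2). ROBO2, NRP1, SEMA6A, SLIT2 and PLXNB1 were lower in nascent cells by 0.88 to 1.07 on the log2 scale. ROBO2, for example, was at 116 and 123 CPM against 191 and 228 CPM (-0.88 ± 0.08, adjusted p = 2.3e-16). Nascent inhibitory cells thus lay below inhibitory cells in this receptor, as cortical excitatory cells lay below midbrain or thalamus cells, in both embryos. Whole brains were used, so the region and the maturity of these classes cannot be told apart.

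**Figure D4:**
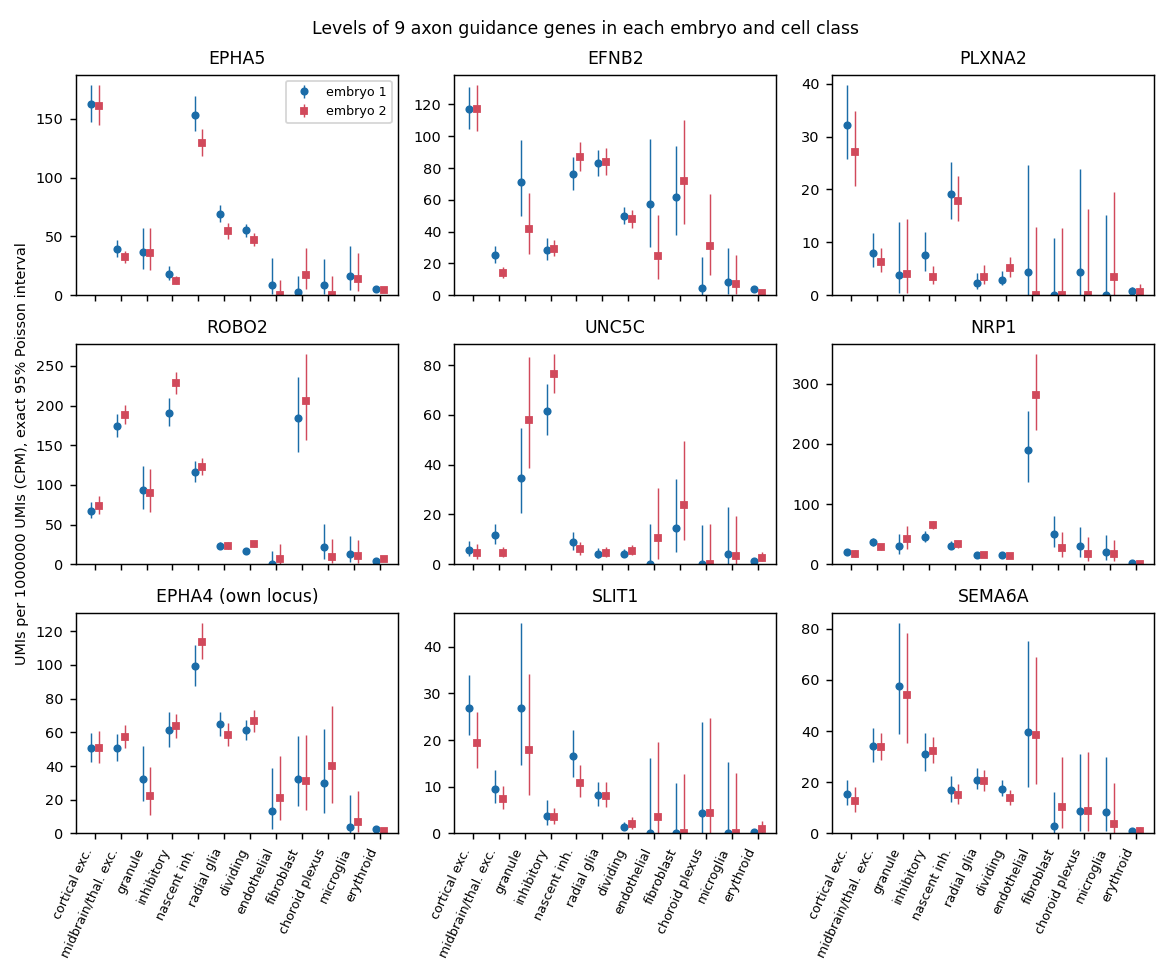
Each panel shows the level of 1 gene (y axis, CPM) in the 12 cell classes (x axis) for embryo 1 (blue circles) and embryo 2 (red squares), with exact 95% Poisson intervals that cover counting error only. The embryos lie close together in the large classes, with EPHA5 above 100 CPM in cortical excitatory and nascent inhibitory cells alone, and the intervals are wide in the small endothelial-like, fibroblast-like, choroid plexus-like and microglia-like classes.

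The blood vessel cells had high levels of ROBO4, UNC5B and PLXND1, which were at or near 0 in neurons, and of NRP1 and ROBO3, which some neurons also carried. In endothelial-like cells against the mean of the 7 neuroectodermal classes, 15 of 50 members were called (30%), 9 higher and 6 lower, beside 29.7% of all genes (15% higher and 14.7% lower), so the number of calls is at the background. The median fold was -0.98 over members and -0.31 over all genes, or -0.04 over all genes with RLE size factors. Members with no UMI in this class, nearly all with neuroectodermal levels under its floor, enter their median with large negative fitted folds. The medians therefore do not show that members were lower there. The class rests on 44 and 43 cells.

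ROBO4, the endothelial ROBO, had 9 and 13 UMIs in the endothelial-like class of embryos 1 and 2 (39.7 and 45.6 CPM) and 0 in all neuroectodermal cells, which makes it at least 317-fold and 419-fold higher when those cells are set at the floor of 3 UMIs over the 7 classes of each embryo. It had no UMI in the other 4 non-neural classes either. With 23 UMIs in all, ROBO4 reached the minimum of 20 only through this class, so it had to differ here, and its values are a description with no test, although it is counted among the 9 higher members. UNC5B, the vascular netrin receptor, was at 35.3 and 56.1 CPM against 0.584 and 0.906 CPM over the pooled neuroectodermal UMIs, a ratio of 60.4 and 62.0 (log2 fold 6.53 ± 0.64, adjusted p = 1.36e-15). PLXND1, the plexin of endothelial cells that binds SEMA3E, was at 48.5 and 45.6 CPM against 1.00 and 0.906 CPM, a ratio of 48.5 and 50.3 (6.31 ± 0.64, adjusted p = 5.4e-15). These 3 receptors lay far above every neuroectodermal class in both embryos.

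NRP1, a coreceptor for vascular endothelial growth factor as well as for semaphorins, was at 190 and 281 CPM, its highest level in any class, against 27.9 and 30.8 CPM (3.23 ± 0.20, adjusted p = 3.32e-27). ROBO3 was at 83.8 and 102 CPM against 16.4 and 8.29 CPM (4.88 ± 0.36, adjusted p = 1.2e-22). It was also high in granule cells, so it did not separate endothelial-like cells from every neuron. ROBO4 was at 0 in granule cells. ROBO3 and ROBO4 are neighbouring models in the annotation, and whether their counts share reads was not tested. SEMA5A was at 39.7 and 38.6 CPM against 3.54 in each embryo (3.88 ± 0.52, adjusted p = 5.24e-10), SEMA6D at 35.3 and 28.1 CPM against 3.51 and 2.95 CPM (3.66 ± 0.59, adjusted p = 1.31e-07). EPHB4 rose by 2.74 ± 0.90 on 2 and 4 UMIs (adjusted p = 0.0135) and EFNA1 by 4.87 ± 1.33 on 1 and 3 UMIs (adjusted p = 0.00216). EFNB2, the arterial partner of EPHB4, was at 57.3 and 24.5 CPM against 64.3 and 60.2 CPM and was not called (adjusted p = 0.480).

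The 6 members called lower in endothelial-like cells were all receptors. The ligands EFNA2, EFNA3 and NTN4, among others, also had no UMI there. Their neuroectodermal levels lie under the floor of the class, so a lower level could not be seen for them. ROBO2 had 0 and 2 UMIs there (0 and 7.01 CPM) against 97.6 and 107 CPM (-4.20 ± 0.58, adjusted p = 1.79e-09). EPHA5 had 2 and 0 UMIs against 76.4 and 67.6 CPM (-3.70 ± 0.64, adjusted p = 1.08e-06), EPHA7 2 and 0 UMIs against 30.5 and 25.3 CPM (-2.64 ± 0.78, adjusted p = 0.00498) and PLXNC1 1 UMI in each embryo against 21.5 and 22.1 CPM (-2.27 ± 0.78, adjusted p = 0.0173). EPHB2 had no UMI in the class and its neuroectodermal level of 10.4 and 8.92 CPM lies under the floor of the class, so no fold is given. ROBO1 had 5 UMIs in embryo 1 and 0 in embryo 2 (-1.63 ± 0.58, adjusted p = 0.0236). The calls of EPHA7, EPHB2 and PLXNC1 were lost with DESeq2. With RLE size factors those of EPHB2, PLXNC1 and ROBO1 were lost (adjusted p = 0.0528, 0.0529 and 0.0900). EPHA4 at its own locus was at 13.2 and 21.0 CPM against 59.98 and 61.7 CPM (-1.63 ± 0.42, adjusted p = 0.00094).

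The endothelial-like class is not pure. All 7 named pericyte markers were present, at a summed 1134 and 828 CPM against 52.7 and 51.4 CPM in the fibroblast-like class, and erythroid markers made up 52358 and 63695 CPM. Meningeal fibroblast markers summed to 829 and 645 CPM, against 8945 and 8507 CPM in the fibroblast-like class. When its cells were sorted by which marker list had more UMIs (a division chosen after the values were seen, and given with no test), 22 and 27 cells had more endothelial and 11 and 12 more pericyte marker UMIs. All ROBO4 UMIs of the class, 9 and 13, fell in the first set. PLXND1 had 10 and 13 UMIs in the first set and 0 in the second. The second set held only 29962 and 29621 UMIs, against 174142 and 252865 in the first, so a count of 0 there does not show that either gene is absent. SEMA6D was the reverse, with 6 and 7 UMIs in cells with more pericyte markers (200 and 236 CPM) and 1 and 1 in the others (5.74 and 3.95 CPM). ROBO3 was found in both, at 68.9 and 71.2 CPM in the first set and 200 and 338 CPM in the second, on 6 and 10 UMIs. So was UNC5B, at 28.7 and 47.5 CPM in the first and 33.4 and 135 CPM in the second, on 1 and 4 UMIs. SEMA5A was at 40.2 and 23.7 CPM in the first and 33.4 and 169 CPM in the second, on 1 and 5 UMIs. The part of pericyte, fibroblast and erythroid RNA in the endothelial values was not tested further.

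**Figure D5:**
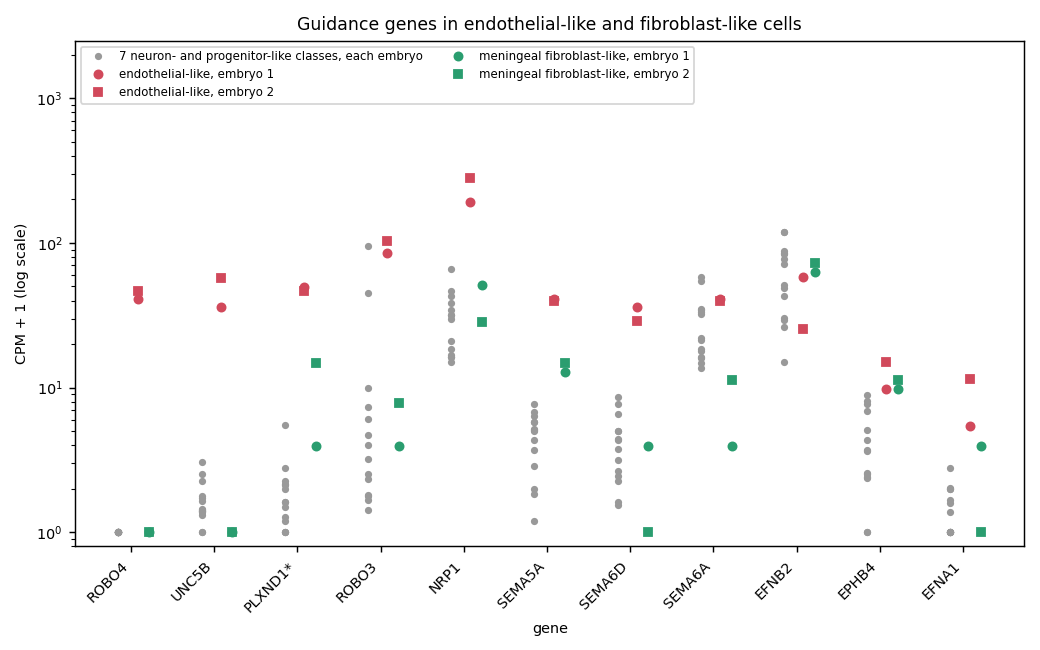
The y axis gives CPM + 1 on a logarithmic scale for 11 genes (x axis; PLXND1 from its own locus), with grey points for the 7 neuroectodermal classes of each embryo, red for endothelial-like and green for meningeal fibroblast-like cells. ROBO4, UNC5B, PLXND1, NRP1, SEMA5A and SEMA6D of both embryos lie above all grey points, whereas ROBO3 overlaps the granule class and EFNB2 lies among the grey points.

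Meningeal fibroblast-like cells (60 and 55 cells) shared some calls with the endothelial-like class. EPHB4, PLXND1 and SEMA5A were higher in both, and EPHA5 was lower in both. ROBO2, EPHA7 and PLXNC1 went opposite ways, lower in endothelial-like and higher in fibroblast-like cells. The share of all genes called in both classes is not given. SEMA5A rose by 2.24 on the log2 scale in fibroblast-like cells. Of the 50 tested members 15 were called (30%, with 31.4% of all genes called, 16.3% higher and 15.1% lower), 9 higher and 6 lower, with a median fold of 0.25 for members and -0.21 for all genes. The share of calls is thus close to the background. ROBO2 was at 185 and 206 CPM against 97.6 and 107 CPM (1.40 ± 0.17, adjusted p = 3.69e-12), a level close to that of inhibitory cells. EPHA7 was at 70.3 and 92.5 CPM, its highest level in any class, against 30.5 and 25.3 CPM (1.66 ± 0.27, adjusted p = 2.33e-07). PLXNC1 was at 43.9 and 44.6 CPM against 21.5 and 22.1 CPM (1.19 ± 0.33, adjusted p = 0.00227), again its highest level. These 3 receptors were carried by neurons too.

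The secreted class 3 semaphorins SEMA3B, SEM3D and SEMA3C were also called in fibroblast-like cells, on few UMIs, while SEMA3E (4 and 0 UMIs) and SEMA3F (3 and 0) were not. SEMA3B had 1 and 3 UMIs (4.34 ± 1.30, adjusted p = 0.00543), SEM3D, the annotation's spelling for SEMA3D, 2 and 2 (3.92 ± 1.24, adjusted p = 0.00875), and SEMA3C 3 and 1 (2.79 ± 1.11, adjusted p = 0.0439). PLXND1 rose by 3.74 ± 1.12 on 1 and 4 UMIs (adjusted p = 0.0054) and EPHB4 by 2.39 ± 0.89 on 3 and 3 (adjusted p = 0.0298). The EPHB4 call was lost at a resolution of 1.0 (adjusted p = 0.0712). Endothelial markers summed to 123 and 195 CPM in the fibroblast-like class, and their part in these values was not tested. At such counts a single molecule moves a level by 2.93 CPM in embryo 1 and 3.43 CPM in embryo 2. Lower members included EPHA5, with 1 and 5 UMIs (-2.48 ± 0.46, adjusted p = 3.73e-06), and SEMA6A, with 1 and 3 (-1.87 ± 0.58, adjusted p = 0.00756). SLIT1, PLXNA2 and SEMA4C had no UMI in the class. For SLIT1 the neuroectodermal CPM of embryo 1 was at least 1.05-fold higher than the floor of the class and that of embryo 2 under it, so its fold cannot be bounded usefully.

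In microglia-like cells (95 and 63 cells) 9 of 50 members were called (18%, with 26.4% of all genes called, 14% higher and 12.5% lower). Of these, 2 were higher and 7 lower, and the median fold was -1.42 over members and -0.33 over all genes. Members with no UMI in this class enter that median too, so it does not show that members were lower. PLXND1 and SEMA4A were higher, each on 2 UMIs in each embryo (8.25 and 7.01 CPM), by 3.85 ± 1.24 (adjusted p = 0.0125) and 3.08 ± 1.16 (adjusted p = 0.0359). SEMA7A, a GPI-anchored semaphorin that was not tested, had its highest level there too (8.25 and 3.5 CPM). EFNB2 had 2 UMIs in each embryo against a neuroectodermal 64.3 and 60.2 CPM (-2.58 ± 0.58, adjusted p = 0.000184), and ROBO2 3 UMIs in each against 97.6 and 107 CPM (-2.52 ± 0.45, adjusted p = 2.01e-06). EPHA7 had no UMI, which makes it at least 2.63-fold and 2.16-fold lower than in the pooled neuroectodermal cells (32.5 and 22.7 CPM). EPHB2 and SLIT1 had none either, and no fold is given for them because their neuroectodermal levels lie under the floor of the class. With cells of at least 1000 genes, 5 members were called, and the share of all genes called in that setting is not given.

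The intracellular partners and further genes of the pathway were taken from a list of 54 genes, of which 43 bear a name in the annotation and 40 were tested. In neurons against progenitors, 24 of the 40 were higher and 7 lower, with a median fold of 0.69, where 28.3% of all genes were higher and 34% lower with a median of -0.07. ISLR2, a membrane protein of growing axons, was at 2.53 to 119 CPM over the neuron-like classes and at 2.55 to 3.97 CPM in progenitors (3.75 ± 0.19, adjusted p = 1.42e-35). LINGO1 (3.41 ± 0.13, adjusted p = 5.11e-44) and the adhesion molecule L1CAM (2.83 ± 0.17, adjusted p = 1.46e-29) had the next largest rises. The chemokine receptor CXCR4 fell by 1.51 ± 0.20 (adjusted p = 6.27e-11). In the remaining comparisons the list had 10 higher and 7 lower in excitatory against inhibitory cells (12.7% and 9.14% of all genes), 6 and 9 in cortical against midbrain or thalamus cells (10.7% and 10.4%), and 12 and 7 in nascent inhibitory against inhibitory cells (9.52% and 8.22%). The medians of the list were 0.02, -0.04 and 0.17, and those of all genes -0.00, -0.01 and 0.02.

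Within the neuron types the same list gave a few strong differences. FYN, a kinase downstream of several guidance receptors, was at 134 and 133 CPM in cortical cells against 75.7 and 68.4 CPM in midbrain or thalamus cells (1.07 ± 0.10, adjusted p = 2.66e-16), and the exchange factor VAV3 at 15.7 and 17.6 CPM against 91.9 and 77.3 CPM (-2.16 ± 0.18, adjusted p = 1.89e-18). ISLR2 was at 82.2 and 84.8 CPM in nascent inhibitory cells and at 2.53 and 4.08 CPM in inhibitory cells (4.47 ± 0.22, adjusted p = 5.12e-34), which placed it on the same side as EPHA5. In endothelial-like cells 9 of the 40 were higher and 12 lower (15% and 14.7% of all genes), led by the actin-binding ABLIM1 with 52.9 and 66.6 CPM (4.31 ± 0.44, adjusted p = 4.79e-15), and NEO1, a netrin and RGM receptor, was lower with 4.41 and 0 CPM (-3.92 ± 0.85, adjusted p = 9.24e-05). In fibroblast-like cells 4 were higher and 14 lower (16.3% and 15.1% of all genes), and in microglia-like cells 9 and 14 (14% and 12.5%). The medians of the list in these 3 comparisons were -0.43, -0.50 and -1.47, and those of all genes -0.31, -0.21 and -0.33. The receptor MET was at 11.7 and 27.4 CPM in fibroblast-like cells (5.11 ± 0.81, adjusted p = 1.11e-07).

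The remaining pathway genes with the largest differences were as follows, all as log2 fold changes with an adjusted p under 0.05 in edgeR's test. RND1 and RGMA were lower in neurons, by 0.73 and 0.52 on the log2 scale. The RGMA call was lost with RLE size factors (adjusted p = 0.0542) and with library totals (adjusted p = 0.235). ISLR2, LINGO1 and the kinase PAK1 were higher in excitatory than in inhibitory cells (2.61, 1.15 and 0.72), and MET, FLRT2 and FLRT3 lower (-2.48, -1.12 and -0.67). In cortical against midbrain or thalamus cells MICAL1, an enzyme that acts on actin, and ISLR2 were higher (1.01 and 0.66), and ABLIM1 and ABLIM3 lower (-2.72 and -1.999). In nascent inhibitory against inhibitory cells CXCR4 and MICAL1 were higher (2.37 and 1.52), and MET, RND1 and VAV3 lower (-2.49, -1.37 and -1.09). ABLIM3 and the actin regulator VASP were higher in endothelial-like cells (3.55 and 2.74) and DPYSL4 lower (-3.46), while ISLR2 was at 0 CPM there. FLRT2 and VAV3 were higher in fibroblast-like cells (2.73 and 1.28), and DPYSL5 and L1CAM lower (-3.74 and -3.44). In microglia-like cells VASP, the small GTPase RAC1 and MICAL1 were higher (2.13, 1.469 and 1.40), and LINGO1 and PTK2 lower (-3.81 and -2.46).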

How the data were processed

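Whole-brain cells of 2 tree shrew embryos were profiled in 1 droplet library each. Per the labels and the study's methods, the authors checked read quality with fastp and counted UMIs with Cell Ranger 3.1.0 at default settings on a long-read tree shrew assembly, and they used Seurat 3 downstream. The deposited values are raw UMI counts per gene model and barcode, not normalized, for 9241 and 9685 barcodes, the same as the cells given in the study's methods, whereas its results state a larger number. No cell annotation was used here, so class names were rebuilt and may differ from the study's.

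Models of the same name were summed. Cells with at least 200 genes were scaled to 10000 UMIs and clustered jointly with scanpy 1.11.5 and leidenalg 0.10.2 (2000 variable genes without the members and pathway genes, 20 principal components, 20 neighbours, resolution 0.5). Clusters were named from marker lists of 16 cell types when at least 3 markers were at 2-fold and in 10% of cells, and unnamed clusters of at least 100 cells were clustered again. Scrublet called 0 and 1 doublets, so its calls were not used, and leaving out the 566 and 696 cells with the highest scores is an alternative.

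Counts were summed per embryo and class and tested with edgeR 4.0.16 (R 4.3.3, TMM, quasi-likelihood) in a single fit of the 12 classes, blocked by embryo, because the same number marks the same embryo. Intervals and floors of 3 UMIs cover counting error only. On simulated data with 4-fold changes, 100% of 200 changed genes were recovered for neurons against progenitors (9584 genes) and 83.5% for the endothelial-like comparison (9484 genes), with 1.96% and 9.24% false calls. The changed genes were drawn only from genes expected to reach at least 2 UMIs in the smallest sum. All genes had the same spread, and the unchanged ones did not differ between classes. These rates therefore do not cover members with few UMIs. The members, marker lists and pathway list were chosen with earlier results of these data known. Values are given for the 3 members of each family with the most UMIs and, per comparison and direction, for the 5 called members with the largest fold change, and for the 3 such pathway genes. Other members named were chosen after their values were seen. In addition to 10 other settings, 2 were chosen after seeing the data: reading EPHA4, ROBO1 and PLXND1 from their own locus, and leaving the erythroid-like class out of the fit. No sequences are shown.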

Additional observations from a re-analysis of the deposited data

Results flagged for a closer look

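Names of the same families that the annotation spells in another way lie outside the rule, and their UMIs were used in no comparison. PLXA1 had 2891 UMIs over both embryos and was highest in choroid plexus-like cells, with 60.2 and 124 CPM in embryos 1 and 2. PLXA4 had 199 UMIs and was highest in cortical excitatory cells, with 13.1 and 16.2 CPM. EPHAA had 72 UMIs and was highest in inhibitory cells, with 5.48 and 6.11 CPM. NTNG2 had 70 UMIs and was highest in midbrain or thalamus excitatory cells, with 5.28 and 4.94 CPM. All 4 lay above the limit that a count of 0 allows, and no control samples exist to set them against.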

How the results depend on the processing

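In excitatory against inhibitory cells, 17 members were called, against 11 with DESeq2 and 9 with cells of at least 1000 genes. In microglia-like cells 9 were called, against 5 with cells of at least 1000 genes. That setting gave no value for endothelial-like cells, since embryo 1 kept 17 of them, under the minimum of 20 cells per embryo and class. Its cells were clustered anew, so its classes differ, with for example a granule cluster of 962 cells. The cause of the lower counts of calls was not tested. EPHA4 in excitatory against inhibitory cells turned from 0.22 to -0.52 on the log2 scale when read from its own locus, because another model holds most of the name's UMIs. Without the block for the paired embryos, 28 members were called in neurons against progenitors, 13 in excitatory against inhibitory, 17 in cortical against midbrain or thalamus, 16 in nascent inhibitory against inhibitory, 15 in endothelial-like, 14 in fibroblast-like and 9 in microglia-like cells. The share of all genes called in these other settings is not given. The counts therefore do not show whether the members or all genes changed. Of the fold changes of named members, DESeq2 left 53 of 68 past the threshold and RLE size factors 64 of 69. Each embryo alone gives a value with no test, and 8 (embryo 2 alone) and 14 (embryo 1 alone) of 69 moved by more than the spread between embryos. The 131 calls of members over 7 comparisons kept their sign with TMM, RLE and library totals, and 116 were called under all 3. Among the classes compared, depth limits the endothelial-like, fibroblast-like and microglia-like ones most. The choroid plexus-like class, which was in no comparison, had floors of 12.9 and 13.3 CPM.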
